A study of Mus musculus with 8 samples.

Results

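The genes of the major histocompatibility complex (MHC) and of antigen presentation were followed in BMEL cells, a bipotential line of liver progenitor cells derived from mouse embryos, on 8 one-colour microarrays of 1 slide. The arrays fall into 3 groups by culture medium, labelled DIFF (n = 2 arrays), CM (n = 3) and NoRX (n = 3), and each group is this 1 line with no other treatment, genotype or age named in the labels. Media conditioned by human amniotic epithelial cells are the subject that the series title gives, but the labels do not spell out what CM, DIFF or NoRX stands for, and NoRX served as the reference here. A list of 36 genes was drawn up by role: 2 classical class I heavy chains, 14 non-classical ones, the light chain B2m, 10 genes of peptide supply and loading, 7 class II genes and 2 transcriptional activators. A gene was taken as measured when the RefSeq accession of a probe named it, which held for 33 of the 36 (40 probes). H2-T22, H2-M2 and H2-Bl had no matched probe, and 26 of the 33 were well above background on at least 2 arrays and were tested among 14035 genes in all.

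MHC class I molecules show peptides from inside the cell to CD8+ T cells and natural killer cells. The peptides are cut by the proteasome, whose catalytic subunits can be exchanged for immunoproteasome subunits, carried into the endoplasmic reticulum by the TAP transporter, trimmed there and loaded with the help of tapasin onto a heavy chain paired with beta-2-microglobulin. Class II molecules, mostly made by professional antigen presenting cells, show peptides from endosomes to CD4+ T cells. Interferons act on both sets of genes through STAT and IRF factors, NLRC5 and CIITA. In healthy liver, hepatocytes carry little class I, and cells of the bile duct lineage can raise it under interferon.

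Many class I and peptide loading genes have conserved elements just before their start sites, and 8 of these sequences are shown, for genes of different roles that include H2-Q4, whose letters resemble those of H2-K1 and H2-D1. The table of promoters, from RefSeq on the build GRCm38.p6, held 26 of the 36 listed genes, and each sequence below is the 250 bases before a start site, 5′ to 3′ on the gene's strand. H2-K1 has 2 start sites in the table, and the window of the downstream one is shown. Capitals mark letters that match, on either strand, GAANNGAAA (the class I interferon motif), GAAA and GAAA with 2 bases between them (the interferon-stimulated response element), TTCNNGGAA (a GAS element bound by STAT factors), GGGNNTTCC (a kB site bound by NF-kB), TGACG (the core of a CRE site) or CTGATTGG (a Y box bound by NF-Y). These letters were chosen after some of these promoters had been read.
H2-K1 (chr17:34000334-34000583, minus strand): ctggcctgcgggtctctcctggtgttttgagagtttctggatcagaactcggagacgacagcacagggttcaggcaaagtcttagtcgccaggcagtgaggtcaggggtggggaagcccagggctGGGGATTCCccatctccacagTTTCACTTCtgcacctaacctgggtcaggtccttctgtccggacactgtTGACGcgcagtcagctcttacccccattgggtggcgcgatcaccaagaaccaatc
H2-D1 (chr17:35262844-35263093, plus strand): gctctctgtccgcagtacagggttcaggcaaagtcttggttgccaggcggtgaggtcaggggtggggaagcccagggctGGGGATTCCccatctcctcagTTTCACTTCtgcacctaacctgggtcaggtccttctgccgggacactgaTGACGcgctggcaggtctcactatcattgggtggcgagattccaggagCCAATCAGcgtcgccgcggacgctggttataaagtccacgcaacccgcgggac
H2-Q4 (chr17:35379367-35379616, plus strand): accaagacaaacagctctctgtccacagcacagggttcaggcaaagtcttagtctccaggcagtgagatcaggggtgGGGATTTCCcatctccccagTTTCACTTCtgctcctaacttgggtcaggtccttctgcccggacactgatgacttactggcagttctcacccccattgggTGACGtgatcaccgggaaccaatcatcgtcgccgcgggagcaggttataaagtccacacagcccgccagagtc
H2-M3 (chr17:37269984-37270233, plus strand): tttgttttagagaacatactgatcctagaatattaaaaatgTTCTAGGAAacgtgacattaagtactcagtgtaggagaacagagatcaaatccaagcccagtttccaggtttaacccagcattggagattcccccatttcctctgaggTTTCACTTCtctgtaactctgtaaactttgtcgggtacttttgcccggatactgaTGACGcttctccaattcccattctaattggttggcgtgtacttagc
H2-T23 (chr17:36032702-36032951, minus strand): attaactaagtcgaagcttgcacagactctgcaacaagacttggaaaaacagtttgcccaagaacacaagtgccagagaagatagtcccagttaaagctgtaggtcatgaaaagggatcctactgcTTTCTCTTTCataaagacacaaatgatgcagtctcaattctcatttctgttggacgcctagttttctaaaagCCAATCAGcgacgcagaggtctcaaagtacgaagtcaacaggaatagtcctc
B2m (chr2:122147437-122147686, plus strand): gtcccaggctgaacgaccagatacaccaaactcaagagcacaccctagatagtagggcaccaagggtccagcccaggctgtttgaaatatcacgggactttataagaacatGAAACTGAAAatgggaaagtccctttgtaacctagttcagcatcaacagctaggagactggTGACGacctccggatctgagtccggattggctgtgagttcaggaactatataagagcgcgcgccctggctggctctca
Tap1 (chr17:34187306-34187555, plus strand): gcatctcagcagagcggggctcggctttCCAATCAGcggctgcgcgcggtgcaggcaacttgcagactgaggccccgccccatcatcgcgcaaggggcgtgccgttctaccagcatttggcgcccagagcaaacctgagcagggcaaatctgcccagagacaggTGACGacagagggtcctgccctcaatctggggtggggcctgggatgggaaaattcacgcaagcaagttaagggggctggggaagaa
Psmb8 (chr17:34197945-34198194, plus strand): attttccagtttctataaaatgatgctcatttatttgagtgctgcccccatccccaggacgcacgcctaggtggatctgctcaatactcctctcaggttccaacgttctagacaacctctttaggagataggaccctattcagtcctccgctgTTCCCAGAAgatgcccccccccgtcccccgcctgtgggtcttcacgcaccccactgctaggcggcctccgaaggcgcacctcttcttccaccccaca
The promoters of H2-K1, H2-D1 and H2-Q4 each held a kB match followed by TTTCACTTC, the class I interferon motif on the other strand, and a TGACG nearer the start. No matches overlapped in the sequences shown. GAANNGAAA was found in 8 of the 26 listed genes with a promoter and in 6.31% of the 32851 promoters of the table, GGGNNTTCC in 8 and 4.98%, CTGATTGG in 9 and 3.83%, and TGACG in 12 and 17.8%. The interferon-stimulated response element was found in 3 listed genes, H2-T23, B2m and H2-T22, and in 2.98% of all promoters, and TTCNNGGAA in 2, H2-M3 and Psmb8, and in 4.06%. Tap1 and Psmb9 are read in opposite directions from start sites 225 bases apart, and their windows share 225 bases. A match is a description of the letters and no measurement of binding.

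Signals are given in normalised units, each array scaled to a common 75th percentile. Differences are on the log2 scale, ± SE, and limma gave the p-values, adjusted by Benjamini-Hochberg over all 14035 genes. Separate cultures are not named in the labels, and p-values here cover the spread between arrays, which may be technical. The fit used 1 spread per gene for all groups. The median SD over genes, on the log2 scale, was 0.19 in DIFF and 0.064 in CM and in NoRX. The SE and p-values of comparisons with DIFF can thus understate the spread of the DIFF arrays. Between 46.4% and 53.5% of spots were well above background, the lowest share being on DIFF replicate 2, which also had 1159 spots on an uneven local background, against 3 to 90 on the other arrays. The DIFF arrays correlated across genes at 0.9603, the CM arrays at 0.9908 to 0.9929 and the NoRX arrays at 0.9935 to 0.9942. DIFF replicate 2 was lower than DIFF replicate 1 for 13036 of 14008 genes with both values, with a median log2 difference of -0.26. Row 1 of the slide held the 3 NoRX arrays with CM replicate 1, and row 2 held DIFF replicates 1 and 2 with CM replicates 2 and 3. Epithelial and progenitor markers (Epcam, Krt8, Krt18, Krt19, Sox9, Hnf4a and 4 others) were above background on all 8 arrays, but their levels differed: 1 rose and 8 fell in DIFF, and 3 rose and 6 fell in CM, relative to NoRX. Over all genes, 14% rose and 28.1% fell in DIFF, and 26.9% rose and 25.3% fell in CM.

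Antigen presentation genes were higher in CM than in NoRX. Of the 26 tested, 19 rose and none fell, 7 did not pass the test, and the median log2 difference was 1.00. Over all 14035 genes, 26.9% rose and 25.3% fell (52.2% in either direction), with a median of 0.01. H2-Q1 passed the background filter through the CM arrays alone. Among the 24 genes above background on all 8 arrays 17 rose, and with no filter 19 of the 33 measured genes rose. With slide row as a block 19 rose as well, and so did 19 within row 1, which held 1 CM array and the NoRX arrays. Both classical class I genes rose, 8 of 10 tested non-classical genes rose, and B2m rose. So did 6 of 10 genes of peptide supply and loading and 2 of 3 tested class II genes. Class I relatives can share probe signal, so the rises of the heavy chains may not all be separate. The genes on chromosome 17, which holds the mouse MHC, made up 17 of the 19 that rose, out of 19 tested there, while 2 of the 7 tested genes on other chromosomes rose.

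In DIFF most of these genes lay below CM, and the 2 DIFF arrays of H2-D1, H2-Q2, H2-Q6, H2-Q7, H2-Q10 and H2-T23 stood on either side of the NoRX mean. Against CM, 22 of the 26 fell and none rose, with a median log2 difference of -1.03, where 35.6% of all genes fell and 23.6% rose (59.2% in either direction), with a median of -0.11. Against NoRX, 6 rose and 4 fell, 16 did not pass, and the median was 0.08, where 14% of all genes rose and 28.1% fell (42.1% in either direction), with a median of -0.10. The comparisons share arrays, so they are not independent of each other. The count against NoRX rested on which DIFF array was used. Without DIFF replicate 2, 12 of the 26 rose and 2 fell, and without DIFF replicate 1, 4 rose and 9 fell. The 22 genes lower than in CM became 21 (20 lower and 1 higher) without DIFF replicate 1 and 21, all lower, without DIFF replicate 2. Within slide row 2, which held the DIFF arrays and 2 CM arrays, 17 were lower and 1 was higher. No row held DIFF and NoRX arrays together, and with slide row as a block 2 of the 26, Psmb8 and Psmb9, rose in DIFF relative to NoRX and none fell.

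**Figure D1:**
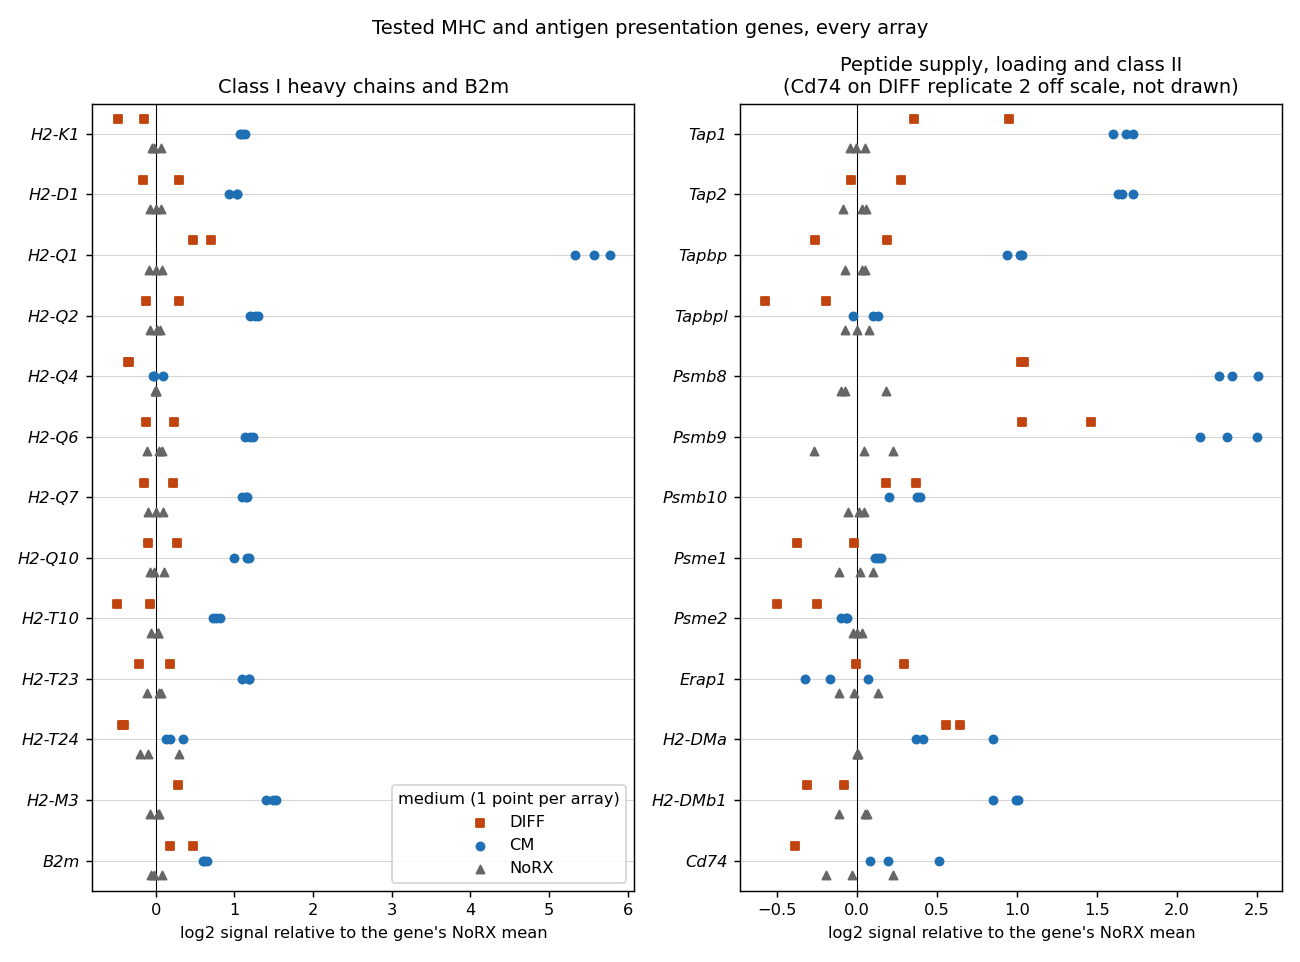
Log2 signal of each tested gene on every array, relative to that gene's mean over the NoRX arrays (x axis), with DIFF as squares, CM as circles and NoRX as triangles, 1 point per array. The CM points stand to the right of the NoRX points for the class I heavy chains other than H2-Q4 and H2-T24, and the DIFF squares of H2-D1, H2-Q2, H2-Q6, H2-Q7, H2-Q10 and H2-T23 straddle the NoRX mean; the value of Cd74 on DIFF replicate 2 is not drawn.

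The classical heavy chains H2-K1 and H2-D1 are the main peptide-presenting class I molecules of the mouse. H2-K1 gave 15400 and 12200 signal units on the DIFF arrays, 35700, 36300 and 37500 on the CM arrays and 16500, 17900 and 16700 on the NoRX arrays. Every CM array lay above every NoRX array, and both DIFF arrays lay below all others. The difference was 1.1 ± 0.09 for CM minus NoRX, 2.15-fold (adjusted p = 1.67e-06), and -1.41 ± 0.10 for DIFF minus CM (adjusted p = 2.57e-07). For DIFF minus NoRX it was -0.31 ± 0.10 (adjusted p = 0.0224), a call lost under 8 of 21 alternatives. The other H2-K1 probe gave -0.19 ± 0.10 for DIFF minus NoRX, with an adjusted p of 0.175 over all probes. The H2-K1 probe was printed in 10 spots per array, whose coefficient of variation within an array was 2.54% to 4.62%.

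H2-D1 gave 7650 and 5560 units in DIFF, 11800, 12700 and 12800 units in CM, and 5890, 6260 and 6510 units in NoRX. CM was above both other groups without overlap, while the DIFF arrays lay on either side of NoRX. H2-D1 rose 2.00-fold in CM relative to NoRX (1.00 ± 0.11, adjusted p = 1.62e-05) and fell by 0.93 ± 0.12 in DIFF relative to CM (adjusted p = 4.1e-05). DIFF minus NoRX was 0.07 ± 0.12 and did not pass (adjusted p = 0.674).

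The non-classical class I genes lie in the Q, T and M regions of the MHC. H2-Q7, a gene of the Qa-2 antigen, gave 5980 and 4600 units in DIFF, 11300, 11400 and 11000 units in CM and 4780, 5140 and 5460 units in NoRX. All CM values stood above the rest, and DIFF and NoRX overlapped. H2-Q7 rose 2.20-fold in CM relative to NoRX (1.14 ± 0.10, adjusted p = 2.91e-06). Its close relative H2-Q6 rose by 1.19 ± 0.09, H2-Q2 by 1.26 ± 0.10 and H2-Q10, which encodes a secreted class I molecule of the liver, by 1.11 ± 0.11. For these 4 Q region genes DIFF minus NoRX was 0.04 to 0.09 and did not pass, and DIFF minus CM was -1.17 to -1.03.

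H2-T23 encodes Qa-1, which carries leader peptides of other class I chains to the CD94/NKG2 receptors. Its signal was 7320 and 5550 units in DIFF, 14700, 14700 and 13800 units in CM and 5980, 6740 and 6660 units in NoRX. CM did not overlap the other groups, and the DIFF arrays stood on either side of NoRX. H2-T23 rose 2.23-fold in CM relative to NoRX (1.16 ± 0.10, adjusted p = 3.36e-06) and DIFF minus NoRX was -0.02 ± 0.11 (adjusted p = 0.914).

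H2-M3 presents N-formylated peptides. It gave 695 units on DIFF replicate 1, 1520, 1610 and 1660 units in CM, and 546, 586 and 590 units in NoRX. Its spot on DIFF replicate 2 lay in a bright patch of the array, with a local background of 324 against an array median of 35, and was left out as an outlier, so that DIFF rests on 1 array. H2-M3 rose 2.78-fold in CM relative to NoRX (1.48 ± 0.08, adjusted p = 2.54e-07) and fell by 1.20 ± 0.11 in DIFF relative to CM. H2-T10, which is close in sequence to H2-T22, gave 1020 and 758 units in DIFF, 1820, 1880 and 1770 units in CM and 1020, 1090 and 1090 units in NoRX. It rose by 0.77 ± 0.10 in CM relative to NoRX (adjusted p = 7.8e-05), and DIFF minus NoRX, at -0.28 ± 0.11, did not pass (adjusted p = 0.0674).

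H2-Q1 was measured in CM only: its probe was well above background on 3 of 3 CM arrays and on none of the 2 DIFF and 3 NoRX arrays. The signals were 9.25 and 7.86 units in DIFF, 228, 309 and 268 units in CM, and 5.65, 5.34 and 6 units in NoRX. Set against the lowest signals called above background, H2-Q1 was at least 13-fold higher in CM than in NoRX and at least 10-fold lower in DIFF than in CM. Such a bound compares the mean of the bright group with, on each dim array, the higher of the probe's own signal and the lowest signal well above background. The limma fit used the unbounded differences, 5.56 ± 0.30 for CM minus NoRX (adjusted p = 1.21e-07) and -4.97 ± 0.34 for DIFF minus CM (adjusted p = 2.54e-07). Their DIFF and NoRX readings lay below background, and the probe passed the filter through CM alone, so these p-values add no support beyond the detection calls. With normexp background correction, which adds an offset of 50, and quantile normalization, the log2 difference between CM and NoRX was 2.04, and with quantile normalization alone it was 5.55. A dimmer second probe of H2-Q10 had the same pattern, with 4.28 and 11 units in DIFF, 180, 214 and 218 units in CM and 10.1, 5.36 and 19.7 units in NoRX. It was above background on the CM arrays alone, and its bound for CM against NoRX was at least 9.89-fold higher. The unbounded difference for this probe was 4.31 ± 0.51 (adjusted p over all probes 0.000113), with the same limit. The main H2-Q10 probe, at 357 and 275 units in DIFF, 674, 659 and 589 in CM and 290, 281 and 317 in NoRX, gave a smaller difference of 1.11.

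H2-Q4 and H2-T24 did not pass in CM relative to NoRX, where the other tested heavy chains rose. H2-Q4, which encodes the Qb-1 antigen, gave 14600 and 14600 units in DIFF, 18300, 18100 and 19800 units in CM and 18600, 18400 and 18700 units in NoRX. CM and NoRX overlapped, and both DIFF arrays lay below them. CM minus NoRX was 0.01 ± 0.06 (adjusted p = 0.883). DIFF minus NoRX was -0.35 ± 0.07, a fall that passed (adjusted p = 0.00216) but was lost under 3 of 21 alternatives. DIFF minus CM was -0.36 ± 0.07 (adjusted p = 0.00104), a fall lost under 2 of 22 alternatives. The promoter of H2-Q4 shown above holds a kB match, TTTCACTTC and TGACG in the same order as that of H2-D1. Its kB match reads GGGATTTCC where that of H2-D1 reads GGGGATTCC. Its TGACG lies 73 to 69 bases before the start, against 101 to 97 in H2-D1, and it lacks the Y box match of H2-D1. H2-K1, which rose in CM, also lacks a Y box match, and H2-Q2, which rose too, holds none of these motifs. A link between these letters and the signals was not tested. H2-T24 gave 44.8 and 44.1 units in DIFF, 75.3, 64.8 and 67.0 units in CM and 55.6, 51.6 and 72.5 units in NoRX. CM minus NoRX was 0.22 ± 0.21 (adjusted p = 0.412). DIFF minus CM was -0.63 ± 0.23, a fall that passed (adjusted p = 0.0353) but was lost under 14 of 22 alternatives. Another H2-T24 probe was above background on no array. H2-T3, the thymus leukaemia antigen, was above background on none of the 8 arrays (4 to 10.1 units).

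Of the 7 tested genes with GAANNGAAA in the promoter window, 6 rose in CM relative to NoRX, H2-Q4 being the exception, against 10 of the 13 tested genes that had a promoter without it. All 7 fell in DIFF relative to CM, against 10 of those 13. All 6 tested genes with a Y box match rose in CM, against 10 of the 14 without one, and 2 of 2 with the interferon-stimulated response element rose, as did 2 of 2 with a GAS match, each against 14 of the 18 without. For kB matches the counts were 4 of 5 against 12 of 15, and for TGACG 7 of 9 against 9 of 11. The genes with these letters are mostly class I heavy chains with related promoters, so they are not independent of each other.

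B2m is the light chain that every classical class I molecule needs at the cell surface. It gave 56000 and 45800 units in DIFF, 62000, 61600 and 63500 units in CM, and 39000, 40000 and 42700 units in NoRX. The 3 groups did not overlap, with CM highest and NoRX lowest. B2m rose 1.54-fold in CM relative to NoRX (0.62 ± 0.08, adjusted p = 7.48e-05), and in DIFF it rose by 0.32 ± 0.09 relative to NoRX (adjusted p = 0.0142) and fell by 0.30 ± 0.09 relative to CM (adjusted p = 0.014). These calls for DIFF were lost under 4 of 21 and 3 of 22 alternatives. None of the 544 spots of the listed genes over 8 arrays was marked as saturated, B2m included.

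In the reported fit, the immunoproteasome genes Psmb8 and Psmb9 had the largest differences between CM and NoRX among the listed genes above background on all arrays. Psmb8 encodes the immunoproteasome subunit LMP7, which takes the place of the constitutive subunit encoded by Psmb5. It gave 104 and 106 units in DIFF, 260, 245 and 291 units in CM, and 48.5, 47.7 and 58.1 units in NoRX. The 3 groups were fully separate, with DIFF between CM and NoRX. Psmb8 rose 5.17-fold in CM (2.37 ± 0.15, adjusted p = 3.27e-07) and 2.05-fold in DIFF (1.03 ± 0.16, adjusted p = 0.00041), both relative to NoRX, and fell by 1.34 ± 0.16 in DIFF relative to CM. Its spot on DIFF replicate 2 lay on uneven background (107, against an array median of 35), and leaving it out gave 1.02 ± 0.23 for DIFF minus NoRX.

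Psmb9 encodes LMP2, the counterpart of the subunit encoded by Psmb6. It gave 192 and 142 units in DIFF, 347, 308 and 395 units in CM, and 57.9, 81.6 and 71.9 units in NoRX. As for Psmb8, DIFF stood between CM and NoRX with no overlap. Psmb9 rose 4.99-fold in CM (2.32 ± 0.17, adjusted p = 1.23e-06) and 2.37-fold in DIFF (1.24 ± 0.19, adjusted p = 0.000341), relative to NoRX. The calls for DIFF were lost with array weights, at an adjusted p of 0.0576 for Psmb8 and 0.0764 for Psmb9, and that of Psmb8 also with normexp background correction and quantile normalization (adjusted p = 0.0766). That alternative adds an offset of 50 to each signal, which shrinks differences of dim probes. Under it CM minus NoRX was 1.45 for Psmb8 and 1.60 for Psmb9, and that of Tap2, at 1.57, stood above Psmb8. Psmb10, the immunoproteasome subunit MECL-1, gave 13100 and 11500 units in DIFF, 13300, 11700 and 13100 units in CM and 10200, 10400 and 9740 units in NoRX. It rose by 0.32 ± 0.08 in CM (adjusted p = 0.00494) and by 0.27 ± 0.09 in DIFF (adjusted p = 0.0273), relative to NoRX, and the call for DIFF was lost under 8 of 21 alternatives.

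Among the constitutive catalytic subunits, Psmb5 gave -0.11 ± 0.07 and Psmb6 0.01 ± 0.07 for CM minus NoRX and did not pass, and Psmb7, the counterpart of Psmb10, rose by 0.26 ± 0.09 (adjusted p = 0.0272). In DIFF minus NoRX, Psmb5 gave -0.08 ± 0.08 and Psmb7 -0.19 ± 0.10 without passing, and Psmb6 fell by 0.21 ± 0.08 (adjusted p = 0.0457). Among 17 genes of the constitutive 20S core and its other activators, 5 rose and 1 fell in CM (median 0.01), and none rose and 6 fell in DIFF, both relative to NoRX. Over all genes, 26.9% rose and 25.3% fell in CM, and 14% rose and 28.1% fell in DIFF. The counts of rises in CM and of falls in DIFF are thus near the shares of all genes. Psma1, Psma5 and Psma2, subunits of the outer rings, rose by 0.40, 0.38 and 0.31 in CM, and Pomp, the assembly chaperone of the 20S core, fell by 0.37. In DIFF the falls relative to NoRX included Psme4 (-0.44 ± 0.13), Psma5 (-0.38 ± 0.07), Pomp (-0.33 ± 0.10) and Psma7 (-0.25 ± 0.07).

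The proteasome activator PA28 is made of the products of Psme1 and Psme2. Psme1 gave 13500 and 10500 units in DIFF, 14800, 15000 and 15200 units in CM and 12600, 13800 and 14600 units in NoRX. CM lay just above NoRX, at 0.13 ± 0.09, which did not pass (adjusted p = 0.267) but passed under 5 of 22 alternatives (lowest adjusted p = 0.0315, with array weights). Psme2 gave 36100 and 30300 units in DIFF, 40800, 40100 and 41200 units in CM and 42100, 42800 and 43900 units in NoRX. CM minus NoRX was -0.08 ± 0.07 (adjusted p = 0.411), and in DIFF Psme2 fell by 0.38 ± 0.08 relative to NoRX (adjusted p = 0.00351), as did its other probe (-0.37 ± 0.09, adjusted p over all probes 0.0112).

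Tap1 and Tap2 encode the 2 chains of the transporter that brings peptides into the endoplasmic reticulum. Tap2 gave 1340 and 1080 units in DIFF, 3490, 3440 and 3670 units in CM and 1150, 1130 and 1040 units in NoRX. CM stood alone at the top, and DIFF overlapped NoRX. Tap2 rose 3.19-fold in CM relative to NoRX (1.67 ± 0.09, adjusted p = 1.1e-07), while DIFF minus NoRX was 0.12 ± 0.10 (adjusted p = 0.377). Tap1, whose probe was printed in 10 spots per array of which 8 to 10 were used, gave 106 and 70.2 units in DIFF, 176, 182 and 167 units in CM, and 53.4, 54.7 and 57.0 units in NoRX. On DIFF replicate 2, a Tap1 spot of 3340 units on uneven background (61.5, against an array median of 35) was left out as an outlier. The groups did not overlap, but the DIFF arrays differed from each other more than those of CM or NoRX. Tap1 rose 3.18-fold in CM (1.67 ± 0.18, adjusted p = 1.75e-05) and 1.57-fold in DIFF (0.65 ± 0.20, adjusted p = 0.0217), relative to NoRX. The call for DIFF was lost under 7 of 21 alternatives, and without DIFF replicate 1 the difference was 0.35. Psmb9, whose start site is 225 bases from that of Tap1, also rose in both media.

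Tapbp encodes tapasin, which holds class I molecules at the transporter during loading. It gave 5440 and 3980 units in DIFF, 9170, 9760 and 9700 units in CM and 4530, 4940 and 4880 units in NoRX. It rose 2.00-fold in CM relative to NoRX (1.00 ± 0.10, adjusted p = 1.4e-05), and DIFF minus NoRX was -0.04 ± 0.12 (adjusted p = 0.819), with the DIFF arrays on either side of NoRX. The tapasin relative Tapbpl (TAPBPR) gave 1140 and 875 units in DIFF, 1400, 1430 and 1280 units in CM and 1240, 1380 and 1300 units in NoRX. CM minus NoRX was 0.07 ± 0.10 and did not pass (adjusted p = 0.62), and Tapbpl fell by 0.38 ± 0.11 in DIFF relative to NoRX (adjusted p = 0.0184), which became -0.19 without DIFF replicate 2 (adjusted p = 0.0834). Erap1, the aminopeptidase that trims peptides in the endoplasmic reticulum, gave 117 and 95.0 units in DIFF, 76.3, 85.1 and 100 units in CM and 88.4, 94.3 and 105 units in NoRX, and passed in no comparison (adjusted p = 0.226 to 0.581).

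Of the chaperones of class I folding, Calr, Canx and Pdia3, none passed in CM relative to NoRX, and 2 rose in DIFF. Over all genes, 26.9% rose and 25.3% fell in CM, and 14% rose and 28.1% fell in DIFF. Calr, which encodes calreticulin, averaged 40800 units in DIFF, 20000 in CM and 20600 in NoRX, and rose 1.98-fold in DIFF relative to NoRX (0.99 ± 0.09, adjusted p = 6.2e-06). Pdia3, which encodes ERp57, rose by 0.33 ± 0.08 in DIFF relative to NoRX (adjusted p = 0.00842).

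**Figure D2:**
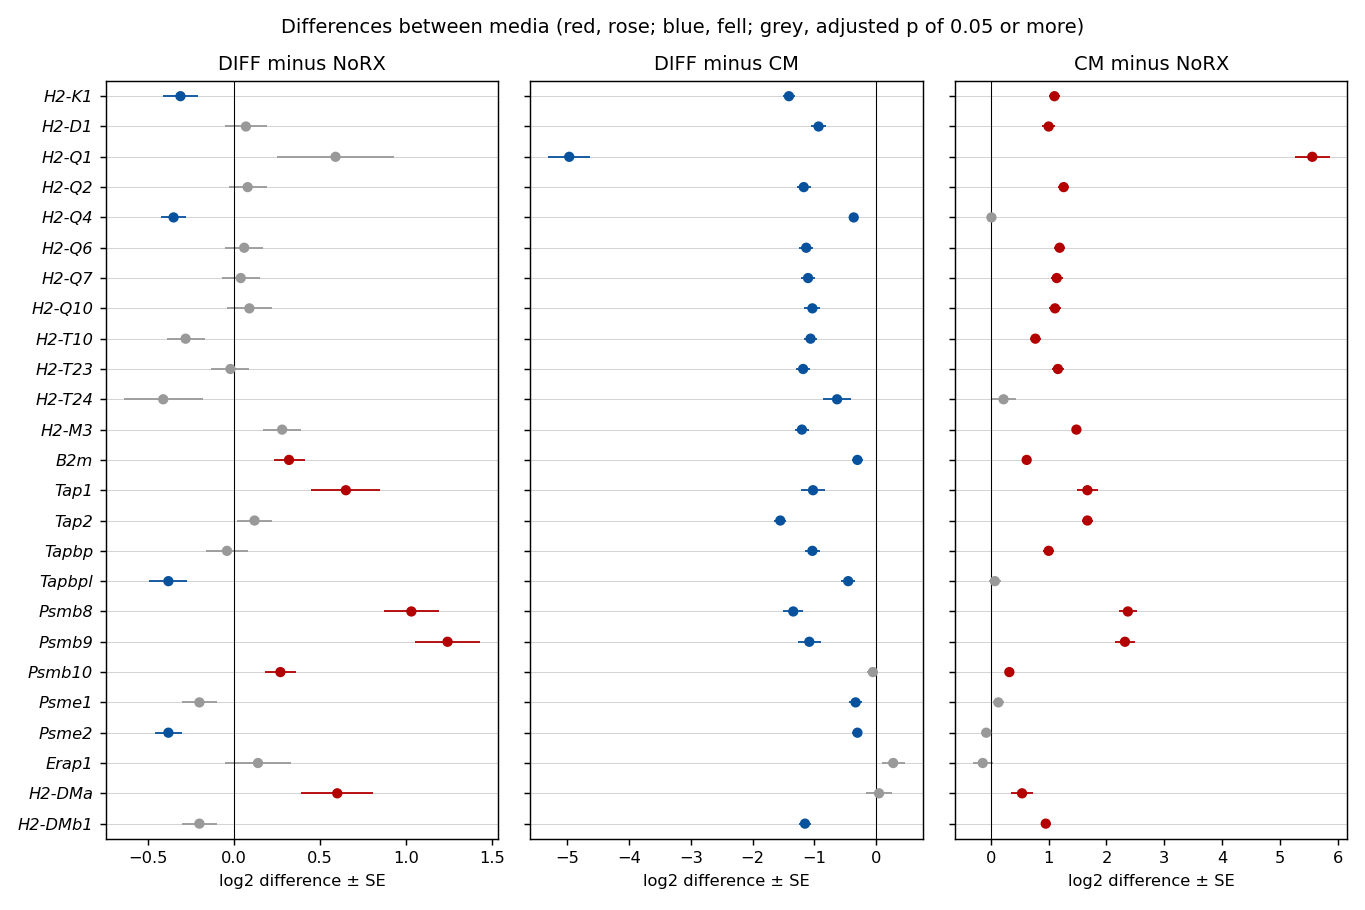
Log2 differences with their SE (x axis) for 25 tested genes in DIFF minus NoRX, DIFF minus CM and CM minus NoRX, in red where the gene rose, in blue where it fell and in grey where the adjusted p was 0.05 or more. Cd74, whose SE is above 1, is not drawn. Psmb8 and Psmb9 lie to the right of 0 in both comparisons with NoRX, and H2-Q1 has the largest difference in CM, where its log2 value is not a bound.

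The class II genes were mostly below detection. H2-Aa, H2-Ab1, H2-Eb1 and H2-Oa, which encode peptide-binding chains and a chain of the inhibitor H2-O, were well above background on none of the 8 arrays. Their signals lay between 4.11 and 11.5 units, where the lowest signal called well above background was 12.7 to 35.2 units, depending on the array. No difference between media was detectable for them at this sensitivity.

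H2-DMa and H2-DMb1, whose products form the exchange factor H2-M that loads peptides onto class II, were above background on all 8 arrays. H2-DMb1 gave 1100 and 931 units in DIFF, 2300, 2090 and 2330 units in CM and 1210, 1070 and 1200 units in NoRX. CM was separate from the other media, which overlapped. H2-DMb1 rose 1.93-fold in CM relative to NoRX (0.95 ± 0.09, adjusted p = 6.49e-06) and fell by 1.15 ± 0.10 in DIFF relative to CM. H2-DMa gave 84.6 and 79.6 units in DIFF, 97.7, 72.2 and 70.0 units in CM and 54.4, 54.1 and 54.3 units in NoRX. It passed in CM (0.54 ± 0.19, adjusted p = 0.0334) and in DIFF (0.60 ± 0.21, adjusted p = 0.043), both relative to NoRX, and these calls were lost under 7 of 22 and 13 of 21 alternatives.

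Cd74 encodes the invariant chain that guides class II molecules to endosomes. It gave 62.4 and 12900 units in DIFF, 93.2, 116 and 86.5 units in CM and 71.4, 79.8 and 95.5 units in NoRX. A single value, on DIFF replicate 2, stood far from the rest, and its spot lay in the bright patch named above, with a local background of 323.5 against an array median of 35. Cd74 passed in no comparison (adjusted p = 0.0913 for DIFF minus NoRX). Without spots on uneven background, DIFF minus NoRX was -0.39 ± 0.28 (adjusted p = 0.284) and DIFF minus CM was -0.65 ± 0.28 (adjusted p = 0.0569).

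The activators of both classes were near or below background. Ciita, the master activator of class II, gave 39.3 and 8.20 units in DIFF, 31.0, 10.8 and 10.7 units in CM and 11.3, 20.1 and 15.2 units in NoRX, and was above background on 1 DIFF array. Nlrc5, the activator of class I genes, had 2 probes, each above background on 1 CM array. The first gave 8.39 and 7.46 units in DIFF, 17.6, 21.9 and 22.6 units in CM and 7.38, 7.77 and 5.59 units in NoRX. The other gave 16.8 and 8.25 units in DIFF, 35.1, 12 and 12.4 units in CM and 5.92, 5.56 and 6.28 units in NoRX. All 3 CM values stood above the other 5 for the first probe, while DIFF replicate 1 lay above 2 of the CM arrays for the other, and the gene was not tested.

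**Figure D3:**
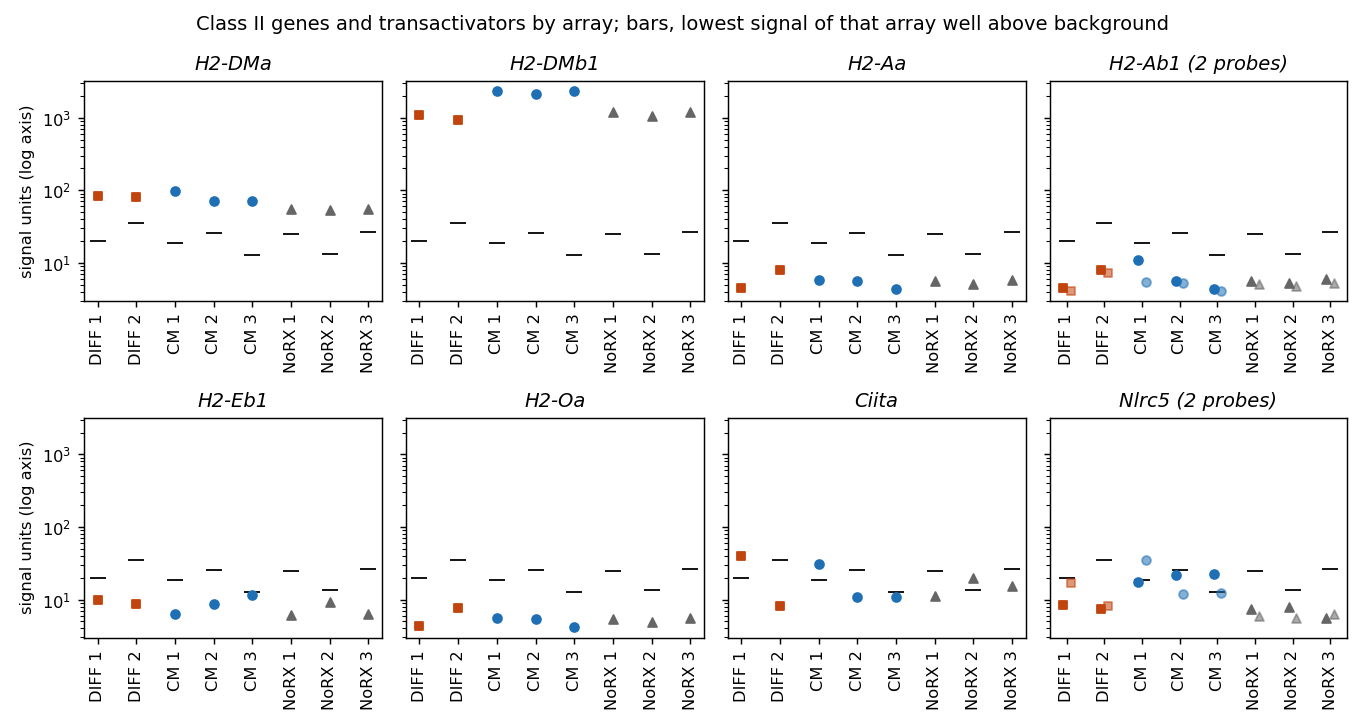
Signal of 6 class II genes, Ciita and Nlrc5 on each array (y axis, normalised signal units on a log scale), with DIFF as squares, CM as circles and NoRX as triangles, and a bar at the lowest signal that the array's scanner file called well above background. H2-DMa and H2-DMb1 lie above the bars on all arrays, and H2-Aa, H2-Ab1 and H2-Oa lie below them on all arrays.

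Genes that act upstream of antigen presentation were read from lists by role. Of 21 genes of interferon signalling, 11 rose and 2 fell in CM relative to NoRX (median 0.25), and 2 rose and 8 fell in DIFF relative to NoRX (median -0.18). For this list and the lists of factors and markers that follow, the shares over all genes serve as the background. These were 26.9% higher and 25.3% lower in CM, and 14% higher and 28.1% lower in DIFF, relative to NoRX. Irf7, an interferon-induced factor of the type I response, averaged 171 units in DIFF, 713 in CM and 239 in NoRX, and rose 2.99-fold in CM relative to NoRX (1.58 ± 0.17, adjusted p = 2.25e-05). Usp18, an interferon-induced brake on the type I receptor, averaged 1230 units in DIFF, 7150 in CM and 2560 in NoRX. It rose by 1.48 ± 0.14 in CM and fell by 1.06 ± 0.15 in DIFF, both relative to NoRX.

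Irf8, a factor best known from myeloid cells, averaged 8.59 units in DIFF, 87.3 in CM and 28.9 in NoRX, and was above background on all CM and NoRX arrays and on no DIFF array. It rose by 1.60 ± 0.30 in CM relative to NoRX and was at least 3.29-fold lower in DIFF than in CM. Irf9, the DNA-binding part of the type I interferon complex, rose by 0.58 ± 0.10 in CM and fell by 0.34 ± 0.12 in DIFF, and Irf1, an activator of class I and immunoproteasome genes, rose by 0.26 ± 0.08 in CM (adjusted p = 0.0226) and gave 0.17 ± 0.09 in DIFF (adjusted p = 0.168), all relative to NoRX. Socs1, a feedback inhibitor of JAK and STAT signalling, gave -0.12 ± 0.12 in CM (adjusted p = 0.448) and fell by 1.28 ± 0.14 in DIFF, and its relative Socs3 rose by 0.26 ± 0.07 in CM and fell by 0.61 ± 0.07 in DIFF, relative to NoRX.

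Of the interferon receptors, Ifngr1 rose in CM (0.33 ± 0.08) and in DIFF (0.55 ± 0.09) relative to NoRX, Ifngr2 gave -0.06 ± 0.08 in CM without passing and fell by 0.36 ± 0.09 in DIFF, and the type I receptor gene Ifnar1 fell by 0.94 ± 0.08 in CM and by 0.52 ± 0.09 in DIFF. Ifnar1 rose by 0.41 ± 0.09 in DIFF relative to CM, a direction that turned when its probes were averaged. The other Ifnar1 probes did not share the fall in CM: one gave 489 and 346 units in DIFF, 565, 564 and 587 in CM and 601, 578 and 592 in NoRX, and the other 76.4 and 67.9 in DIFF, 120, 113 and 107 in CM and 86.2, 97.2 and 79.3 in NoRX. With the probes averaged, CM minus NoRX was -0.20 for Ifnar1 and did not pass (adjusted p = 0.12).

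The factors that bind the conserved boxes of MHC promoters were mixed. Of 8 genes for RFX, NF-Y and related factors, 3 rose and 1 fell in CM relative to NoRX, and 1 rose and none fell in DIFF. The RFX subunit gene Rfxank averaged 2530 units in DIFF, 4410 in CM and 2180 in NoRX, and rose 2.02-fold in CM relative to NoRX (1.02 ± 0.09, adjusted p = 3.24e-06). Among the NF-Y subunits, which bind the Y box, Nfyb rose by 0.85 ± 0.11 and Nfya by 0.38 ± 0.10 in CM relative to NoRX, Nfya rose by 0.37 ± 0.11 in DIFF, and Nfyc fell by 1.19 ± 0.08 in CM. Rfx5 was above background on 2 CM arrays alone, and CM minus NoRX did not pass (0.96 ± 0.51, adjusted p = 0.141).

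Of 5 tested NF-kB genes, 4 rose and none fell in CM relative to NoRX, and 1 rose and 2 fell in DIFF. Nfkbia, the inhibitor that NF-kB itself induces, rose 2.42-fold in CM (1.28 ± 0.07) and 2.41-fold in DIFF (1.27 ± 0.08), relative to NoRX. Relb rose by 0.75 ± 0.08, Nfkb2 by 0.49 ± 0.08 and Nfkb1 by 0.33 ± 0.11 in CM, and in DIFF Relb fell by 0.58 ± 0.09 and Rela by 0.38 ± 0.07, all relative to NoRX. Rel was above background on no array.

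**Figure D4:**
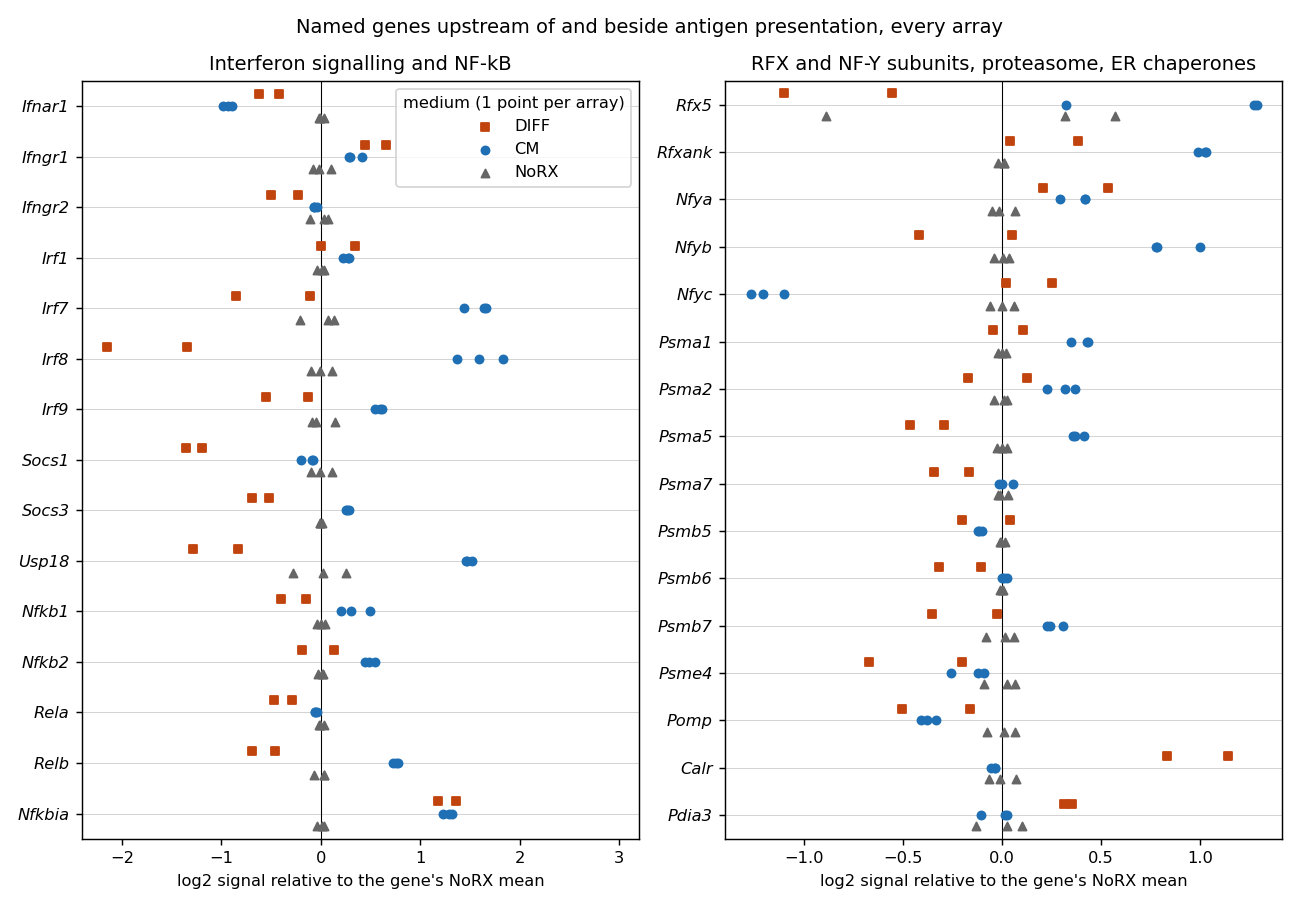
Log2 signal on every array relative to the gene's NoRX mean (x axis) for named genes of interferon signalling and NF-kB (left) and of RFX and NF-Y, the proteasome and the chaperones (right), with DIFF as squares, CM as circles and NoRX as triangles. Irf7, Irf8 and Usp18 stand to the right of NoRX in CM and Usp18 and Irf8 to the left of it in DIFF, while the catalytic proteasome subunits Psmb5 and Psmb6 stay within 0.4 of their NoRX mean on every array.

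Signals of immune cells were checked beside these results, since professional antigen presenting cells express both MHC classes. Of 14 leukocyte markers 13 had a matched probe (Cd68 had none). Adgre1, Itgax, Lyz2, Flt3 and Xcr1 were above background on no array, and the pan-leukocyte gene Ptprc and the B cell gene Cd79a on 1 array each. Of the 5 tested, Cd14 and Csf1r rose in CM relative to NoRX, by 1.01 ± 0.09 and 0.56 ± 0.12, Itgam, Cd3e and Siglech did not pass, and all 5 fell in DIFF. The summed signal of the 13 was 88200 to 107000 units in DIFF, 107000 to 116000 in CM and 119000 to 129000 in NoRX. Without Siglech, whose probe gave most of it, the sum was 9320 to 11300 units in DIFF, 18100 to 18700 in CM and 14700 to 16000 in NoRX. In bulk RNA a smaller share of cells and less RNA per cell cannot be told apart, and the part of Cd14 and Csf1r in the differences was not tested. Another Csf1r probe, above background on all 8 arrays, went the other way in CM, with 524 and 402 units in DIFF, 402, 413 and 430 in CM and 487, 538 and 602 in NoRX.

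Markers of other liver cell types moved too. Of 6 hepatocyte markers, 5 rose and 1 fell in DIFF, and 3 rose and 1 fell in CM, relative to NoRX. Their summed signal was 100000 to 129000 units in DIFF, 5640 to 7420 in CM and 12600 to 15400 in NoRX. Apob, the marker that fell in both media, gave most of the sum in CM (3960, 3400 and 4110 units) and NoRX (13100, 10700 and 12200 units). The lower sum in CM thus follows Apob, while Alb, Apoa1 and Fgb rose by 3.29, 1.12 and 4.71 in CM relative to NoRX. Apoa1 was above background on 1 CM array and on no NoRX array. Fgb was above background on 3 CM arrays and on no NoRX array, and was at least 6.73-fold higher in CM. The differences given for these genes in CM are unbounded. Alb, which encodes albumin, gave 36800 and 28800 units in DIFF, 735, 550 and 773 in CM and 95.4, 73.5 and 47.9 in NoRX. Des, which encodes desmin and is a stellate cell marker, gave 169 and 113 units in DIFF, 813, 801 and 792 in CM and 207, 222 and 201 in NoRX. Like most class I genes it rose in CM relative to NoRX (1.94 ± 0.14) and fell in DIFF relative to CM (-2.54 ± 0.15). Col1a1 fell by 0.66 ± 0.17 in CM relative to NoRX, and Pdgfrb was above background on no array. The 5 stellate and fibroblast markers summed to 176 to 255 units in DIFF, 941 to 958 in CM and 414 to 430 in NoRX. Cdh5, an endothelial cadherin, gave 51.7 and 8.25 units in DIFF, 181, 214 and 191 in CM and 47.9, 70.1 and 47 in NoRX. It rose by 1.85 ± 0.51 in CM relative to NoRX and was lower in DIFF than in CM, while the endothelial markers Tek and Tie1 were above background on no array. Kdr and Pecam1 were above background on all 8 arrays and did not pass in CM relative to NoRX. Kdr gave -0.02 ± 0.09 there and fell by 0.33 ± 0.10 in DIFF relative to NoRX. Another Kdr probe, printed in 10 spots, was above background on no array. The 5 endothelial markers summed to 6240 to 7370 units in DIFF, 8330 to 9050 in CM and 7960 to 9650 in NoRX. Most of this came from the brighter Kdr probe, which averaged 6700 units in DIFF, 8320 in CM and 8430 in NoRX. The part of these markers in the differences of the antigen presentation genes was not tested.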

How the data were processed

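RNA of BMEL cells in 3 media was hybridised to Agilent SurePrint G3 mouse arrays. The authors' deposited scanner files give spot intensity on a linear scale. Agilent Feature Extraction 11.0.1.1 is named by the submitters' processing notes, and background subtraction and spatial detrending by the file headers. A deposited table of the whole series was identical to these values (largest difference 0). The number of arrays limits the precision.

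From these, the log2 processed signal minus each array's 75th percentile was computed, without control spots and outlier spots, and spots of a probe were averaged. Of 55681 probes, 27235 matched a RefSeq accession (GRCm38.p6) and named 20660 genes. The probe with the highest mean stood for a gene, which was tested if that probe rose well above background on 2 or more arrays. Groups were compared in 1 limma 3.58.1 fit (R 4.3.3, eBayes with a trend, two-sided, threshold 0.05). The fit was run on simulated data with the NoRX spread on every array and changes planted in CM alone. That run does not cover the comparisons with DIFF. Other probes of a gene come from a fit over all probes. The alternatives were other background corrections, scalings, filters, blocks, array weights and leaving out each array, and 2 of them, leaving out spots on uneven background and row 2 of the slide alone, were chosen after seeing the data. The normexp alternative used the median spot signal, since the files hold no mean signal. Media replicate numbers were checked: deviations of same-numbered arrays correlated at -0.057 to 0.175, so the numbers were not taken as pairs. One label numbers both DIFF arrays as replicate 1, and averaging them was an alternative.

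The listed genes and the other lists were chosen with earlier results of these data known. Every listed gene is named, and of the other lists up to 4 genes per comparison with the largest differences past the threshold, with a fixed panel of interferon and proteasome genes. Some genes of the other lists are not reported here. Promoters were read with pandas and figures drawn with matplotlib. Class I relatives can share probe signal, and the probes' sequences were not used here.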

Additional observations from a re-analysis of the deposited data

How the results depend on the processing

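The 19 calls in CM relative to NoRX, all rises, became 17 to 21 over the alternatives (18 to 21 when 1 array was left out), of which 17 to 20 were rises and at most 1, Psme2, a fall. Of the 19, 18 stayed called under every alternative that could be run for them, the exception being H2-DMa. The 22 falls in DIFF relative to CM became 16 to 22 (20 to 22 with 1 array left out, among 21 to 22 calls), with at most 1 rise, Cd74, and 15 of 22 stayed called throughout. None of the 10 calls in DIFF relative to NoRX did. That count was 6 with median centring (6 higher and 0 lower, against 6 and 4), 2 with slide row as a block, 5 with only the 2 groups compared, 1 with array weights, and 5 to 14 when 1 array was left out, among them 6 without NoRX replicate 1 and 5 without NoRX replicate 2. Over all genes, the counts were 4796 (CM against NoRX) and 2802 (DIFF against NoRX) with slide row as a block, 2988 (DIFF against NoRX) and 5315 (DIFF against CM) with array weights, and 6109 to 9309, 4729 to 8487 and 7342 to 9788 for CM against NoRX, DIFF against NoRX and DIFF against CM when 1 array was left out. Median centring changed the split of higher and lower genes to 2400 and 2133 for DIFF against NoRX and 3936 and 3184 for DIFF against CM, where the reported fit had 1961 and 3947 and 3315 and 4990. It moved the median of all genes by 0.15 and 0.17. Directions turned for Ifnar1 (-0.24, mean of probes), Krt19 (-0.15, without DIFF replicate 1) and Cd74 (-0.65 without DIFF replicate 2, 7.05 without DIFF replicate 1) in DIFF against CM, and for Tapbp (0.19 without DIFF replicate 2, -0.26 without DIFF replicate 1) in DIFF against NoRX. The causes were not tested. With replicate number as a block, 9, 22 and 18 listed genes were called for DIFF against NoRX, DIFF against CM and CM against NoRX. Under this block H2-DMa, H2-K1 and Psmb10 lost and Cd74 and H2-M3 gained a call for DIFF against NoRX, H2-T24 lost and Cd74 gained one, as a rise, for DIFF against CM, and H2-DMa lost one for CM against NoRX. Probes close to background, such as those of Nlrc5, Ciita and the class II chains, set no limit on changes below detection.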

Other observations

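Class I-like genes outside the MHC also differed between the media. Of the 6 tested, 4 rose and 1 fell in CM relative to NoRX, and 2 rose and 4 fell in DIFF. Beside these counts and those of the 2 lists below, 26.9% of all genes rose and 25.3% fell in CM. In DIFF 14% of all genes rose and 28.1% fell, relative to NoRX. Mr1, which presents vitamin B metabolites to MAIT cells, gave 14.4 and 7.21 units in DIFF, 167, 354 and 181 units in CM and 64.1, 63.3 and 56.7 units in NoRX. It was above background on all CM and NoRX arrays and on no DIFF array. Mr1 rose 3.60-fold in CM relative to NoRX (1.85 ± 0.32, limma adjusted p = 0.000649) and was at least 8.29-fold lower in DIFF than in CM. Procr, the endothelial protein C receptor, averaged 712 units in DIFF, 6600 in CM and 1430 in NoRX, and rose 4.63-fold in CM while it fell by 1.00 ± 0.09 in DIFF, both relative to NoRX. Hfe, a regulator of iron uptake, rose by 0.47 ± 0.09 in CM and fell by 0.96 ± 0.10 in DIFF. Azgp1, a secreted zinc-binding glycoprotein of liver and other epithelia, rose by 6.18 ± 0.21 in DIFF relative to NoRX, and Fcgrt, the neonatal Fc receptor, rose by 0.40 ± 0.13 in DIFF and fell by 0.44 ± 0.11 in CM.

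Among proteases of the endosomal route, 4 of 5 tested rose in CM relative to NoRX (Lgmn 0.74, Ctsd 0.57, Ctsb 0.47 and Ctsl 0.38), and 4 fell in DIFF, where Lgmn rose by 0.59 ± 0.10. Ctss, the cathepsin of professional antigen presenting cells, was above background on no array. Of 5 tested ligands of co-stimulation, 2 rose and 1 fell in CM, and 1 rose and 3 fell in DIFF. Cd274 (PD-L1) averaged 184 units in DIFF, 452 in CM and 334 in NoRX, and rose by 0.44 ± 0.10 in CM and fell by 0.86 ± 0.11 in DIFF. Cd40 fell by 0.84 ± 0.17 in CM and by 1.77 ± 0.19 in DIFF. Icosl was above background on all DIFF and CM arrays and on no NoRX array, and was at least 3.38-fold higher in DIFF and at least 1.81-fold higher in CM. Cd86 was above background on no array.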
